A study of Mus musculus with 4 samples.

Results

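Igf1 and the binding proteins Igfbp2, Igfbp3, Igfbp4, Igfbp5 and Igfbp7 were followed through single cells of the mouse embryo at E10.5, embryonic day 10.5. The 6 genes were taken by symbol from the 31053 genes of the count tables. The cells had been sorted for the endothelial protein CD31 and against CD45, which the labels write as C45, from the aorta-gonad-mesonephros region (AGM), where the dorsal aorta gives rise to the blood-forming hemogenic endothelium. The study compared 2 wild-type (WT) libraries with 2 libraries of age-matched miR-223-/- mutants (KO), a question about the microRNA miR-223 in hemogenic endothelium. No treatment is given for either group. The labels do not say how the allele was made, how many embryos entered a library, or whether replicates came from separate litters, so each p-value below measures only the spread between these libraries. The miR-223 gene has no row of its own in the count tables, and its loss was not checked here.

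Igf1 encodes insulin-like growth factor 1, a secreted hormone and local growth factor that binds the receptor tyrosine kinase Igf1r and acts through Irs adaptors, PI3K and Akt on growth and survival. Igfbp2, Igfbp3, Igfbp4 and Igfbp5 encode classical binding proteins: they hold IGFs with high affinity outside the cell, carry them or keep them from the receptor, and release them when proteases such as Pappa cut them. Igfbp7 binds IGFs weakly, is deposited in the vessel wall matrix, and is known as a product of endothelium.

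MicroRNAs such as miR-223 repress messenger RNAs that pair with their seed, so the mature sequence is shown with the sites that the listed genes hold. The mature strand lies at chrX:96242884-96242905 on the plus strand of GRCm38.p6, as RefSeq gives it, and capitals mark the seed, bases 2 to 8.
mmu-miR-223-3p: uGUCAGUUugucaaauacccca
The matching letters AACTGAC, searched on the sense strand of the 3' untranslated regions of the GENCODE M21 annotation, were found in 2058 of 21738 genes with such a region, 9.47%. They were in 16 of 72 genes, the 6 and the others of their pathway that are described below. Among the 6 genes Igfbp5 alone held them, once, starting at position 2167 of a region of 4448 bases, with no A after the match. Of the genes of the pathway, Igf1r held them at position 241 of 7270, followed by an A. The match is in capitals in both windows.
Igfbp5: gagagcaaagaAACTGACgtgcg
Igf1r: cccgaacccttAACTGACatggg
A match of letters is a description of the sequence and not evidence of binding.

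In GRCm38, Igf1 spans chr10:87858265-87937042 on the plus strand. Igfbp2 (chr1:72824503-72852474, plus strand) and Igfbp5 (chr1:72857932-72874884, minus strand) are neighbours, with 5457 bases and no annotated gene between them. Igfbp3 lies at chr11:7206086-7213923 on the minus strand, 3539 bases from Igfbp1, and Igfbp4 at chr11:99041244-99054392 on the plus strand. Igfbp7 lies at chr5:77349240-77408041 on the minus strand. Igf1 overlaps the antisense gene Igf1os, and Igfbp7 overlaps Polr2b and Gm34648 on the other strand. The sources used here do not say whether the authors' counting used strand, so reads of these overlapping stretches are uncertain for Igf1 and Igfbp7.

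The libraries held 95158639 to 181682389 UMIs (unique molecular identifiers, each standing for 1 captured transcript) over 3917 to 11186 barcodes. After filters on genes per cell, mitochondrial UMIs and doublets, 19184 cells were left, 2300 to 6873 per library, with a median of 18340 to 30281 UMIs. Any pair of libraries shared 8 to 28 barcodes, at most 0.327% of the smaller library. The cells formed 24 clusters, named from marker genes and without use of the 6 genes or their pathway in the clustering. The 15633 endothelial-like cells carried all 12 pan-endothelial markers in every library (summed level 5739 to 6505 CPM, the UMIs of a gene per 1000000 UMIs of the class) and 1.37 to 1.55 CPM of myeloid markers. They were divided into 9 subclasses: cycling, 2 arterial-like (led by Gja4 and by Htra1), venous-like, sinusoidal or lymphatic-like, sprouting-like, 2 neural capillary-like (led by Spock2 and by Tdrp) and endocardial-like. Although the sort was for CD31, 1329 mesenchymal-like cells were present, with 210 to 399 CPM of pan-endothelial and 1522 to 1991 CPM of mesenchymal markers. They were paraxial, limb or body-wall, and a cluster led by Col1a1, which also held Acta2 and Krt8 among its leading genes. The hemogenic-like class had 280 cells and only 10 in 1 WT library, so it was described and not tested. Levels below are given in CPM in the order WT 1, WT 2, KO 1, KO 2. Gene length does not enter them, so they are compared between classes and not between genes.

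The growth factor itself was most abundant in the venous-like cluster, which was led by Prox1. Igf1 stood at 201, 269, 236 and 236 CPM in venous-like cells, 236 ± 27.5 (SD, n = 4 libraries), and at 135, 199.8, 162 and 207 CPM in endocardial-like cells. The venous-like level was the highest of the 9 endothelial subclasses in 4 of 4 libraries, 1.14 to 1.49 times the endocardial-like one within a library, although the ranges of both classes overlapped over libraries. Next came cycling endothelial-like cells at 99.4 ± 2.58 CPM (SD, n = 4), with no overlap with the endocardial-like values. The 2 arterial-like clusters were low: the Gja4 cluster gave 55.2, 57.7, 50.6 and 45.2 CPM and the Htra1 cluster 13.5, 21.1, 25.9 and 22.8 CPM. Venous-like cells therefore held 3.65 to 5.23 times the level of the first and 9.10 to 14.9 times that of the second. Sinusoidal or lymphatic-like cells had 59.5, 54.6, 105 and 48.9 CPM. Hemogenic-like cells had 25.0, 13.6, 30.2 and 27.9 CPM. As sums of UMIs, a lower level in a class cannot tell apart fewer cells with the transcript and less transcript per cell, so cells were also thinned to 5000 UMIs each. Then 59.1% of 115 venous-like cells of WT 1 (exact 95% interval 49.6 to 68.2) and 68.8% of 330 of WT 2 (63.5 to 73.8) had an Igf1 UMI, the lowest and highest of the 4 libraries. Primordial germ cell-like cells, which lack vascular identity, were taken as a comparison class, and free RNA itself was not measured. Their share was at most 2.33%. Their median depths before thinning were 36430 to 57499 UMIs, against 17640 to 28052.5 in venous-like cells. Without thinning the shares were 89.2 to 94.3% in venous-like and 5.62 to 13% in germ cell-like cells. Thinning left out 10 venous-like cells with under 5000 UMIs, over the 4 libraries.

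Mesenchyme was less even for Igf1. The mesenchymal-like cells together had 79.9, 108, 37.8 and 87.8 CPM, above the endothelial-like level (85.1, 90.7, 88.2 and 86.5 CPM) in 2 of 4 libraries. KO 1 was the lowest library in the paraxial cells (96.6, 157, 40.1 and 83.8 CPM), in the limb or body-wall cells (55.1, 102, 32.9 and 82.5 CPM) and in the Col1a1 cluster (103, 47.4, 40.6 and 101 CPM). Endothelial-like cells held 85.5 to 94.4% of each library's Igf1 UMIs while they were 71.6 to 86.4% of cells, and cycling ones alone 44.3 to 50.0% of the UMIs and 29.3 to 34.2% of cells.

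Igfbp3, the main carrier of IGFs in adult blood, marked the Gja4 arterial-like cells. Its level there was 834, 618, 558 and 605 CPM, 654 ± 123 (SD, n = 4), with no overlap with the next class. Sprouting-like cells, which carry tip cell genes such as Esm1, were next at 296, 278, 192 and 280 CPM. Within a library the Gja4 cluster held 2.16 to 2.91 times the sprouting-like level, 3.12 to 4.45 times that of the Htra1 arterial-like cluster (267, 139, 147 and 147 CPM) and 19.2 to 28.3 times that of venous-like cells (36.9, 31.5, 19.8 and 31.5 CPM). The 2 arterial-like clusters thus differed in Igfbp3. Both had UMIs of all 12 arterial markers, but not at the same strength. The mean log2 fold of these markers against all other cells was 1.91 in the Gja4 cluster and 3.18 in the Htra1 cluster. At 5000 UMIs per cell, 81.2% (exact 95% interval 75.4 to 86.1, KO 1) to 87.8% (81.6 to 92.5, WT 1) of Gja4 arterial-like cells had an Igfbp3 UMI. The share in germ cell-like cells was 6.98 to 11.3%. Unthinned, these shares were 90.9 to 96.9% and 32.6 to 60.9%. Mesenchymal-like cells had a low level, 32.2, 30.9, 15.6 and 26.3 CPM, and endothelial-like cells exceeded them 5.01 to 7.10 times. In hemogenic-like cells Igfbp3 gave 0, 9.91, 10.2 and 32.0 CPM.

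Igfbp2, which is widely expressed in embryonic epithelia and nervous tissue, was highest in arterial-like cells within the endothelium and high outside it. The Gja4 arterial-like cells had 251, 242, 244 and 249.9 CPM (247 ± 4.48, SD, n = 4) and the Htra1 cells 213, 213, 265 and 223 CPM, and the order of these 2 clusters turned in KO 1. Venous-like cells had 55.7, 57.4, 46.8 and 53.4 CPM and sinusoidal or lymphatic-like cells 38.2, 21.8, 31.1 and 26.6 CPM, 6.58 to 11.1 times below the Gja4 cluster. After the arterial-like clusters, the next endothelial subclass was the Spock2 neural capillary-like cells at 172, 155, 118 and 158 CPM. Within a library they held 2.15 to 2.70 times the Igfbp2 of the Tdrp cells. The highest level of any class was in the 132 epithelial-like cells, at 1034, 349.9, 1047 and 487 CPM, and neural-like cells had 211, 209.7, 218 and 219.9 CPM. Unlike Igfbp3, Igfbp2 was higher in mesenchymal-like than in endothelial-like cells in 4 of 4 libraries, by 1.12 to 1.58 times. Hemogenic-like cells gave 25.0, 42.8, 85.7 and 34.9 CPM.

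Igfbp4, a binding protein that mostly withholds IGFs until Pappa cleaves it, was spread over all endothelial subclasses. It was present at 5000 UMIs per cell in 95.4 to 99.2% of endothelial-like cells, against 4.44 to 16.3% of germ cell-like cells (99.7 to 99.9% and 43.0 to 67.4% unthinned). Most cells outside the endothelium could hold it too. At the same depth the share was 78.9 to 88.1% in mesenchymal-like and 85.5 to 100% in hemogenic-like cells. Its highest level was in the Htra1 arterial-like cells, at 1423, 1044, 1361 and 1194 CPM, and its lowest endothelial level in endocardial-like cells, at 777, 469.8, 699.9 and 569 CPM. The span of the 9 subclasses within a library was only 1.83 to 2.22 times, and neighbours in the order overlapped. Sinusoidal or lymphatic-like cells were close to the top with 1368, 982, 1114 and 1076 CPM. The hemogenic-like cells kept a level near that of the endocardial-like ones, 673, 488, 718 and 557 CPM. Mesenchymal-like cells had 589, 344, 431 and 414 CPM, 1.72 to 2.27 times below endothelial-like cells.

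Igfbp5, which binds extracellular matrix and bone mineral as well as IGFs, was high in epithelial-like, paraxial and Col1a1 mesenchymal-like cells. Within the endothelium it was high in 1 small subclass. Paraxial cells had 316, 429, 172 and 274 CPM and Col1a1 cells 231, 193, 282 and 363 CPM. The limb or body-wall cells were low at 44.7, 25.7, 27.6 and 55.2 CPM, so that paraxial cells exceeded them 4.96 to 16.7 times and Col1a1 cells 5.17 to 10.2 times. Endocardial-like cells had 198, 136, 171 and 76.8 CPM, 12.1 to 25.7 times the endothelial-like level of 7.70, 7.74, 7.02 and 6.35 CPM. Only 258 cells were endocardial-like, and they carried 47.8 to 154 CPM of mesenchymal markers beside 461 to 784 CPM of endocardial ones. Without every cell that had a UMI of Prrx1, Twist1 or Pdgfra, 3 of the 10 mesenchymal markers, the mean Igfbp5 level was 135 CPM, against 146 CPM with them; the part of the full list was not tested. At 5000 UMIs per cell, 17.4% (exact 95% interval 4.95 to 38.8, WT 1) to 32.4% (18 to 49.8, KO 1) of endocardial-like cells had an Igfbp5 UMI, against 1.71 to 2.59% of all endothelial-like cells (36.0 to 51.4% and 6.20 to 7.99% unthinned). No Igfbp5 UMI was found in the 149 erythroid-like cells of the 4 libraries, which allows up to 2.01% of such cells to hold an Igfbp5 UMI at this depth and sets no limit on cells that express the gene. The epithelial-like cells had the highest mean of any class, 360 CPM, but were uneven at 600.3, 112, 326 and 401 CPM, and overlapped the paraxial cells. Mesenchymal-like cells held 42.5 to 69.9% of the Igfbp5 UMIs while they were 3.26 to 14.6% of cells.

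Igfbp7 marked the Spock2 neural capillary-like cells, which have Mfsd2a, a gene of the blood-brain barrier, among their leading genes. Its level there was 402, 391, 158 and 487 CPM, 359 ± 141 (SD, n = 4), with no overlap with the next class. That next class, the Gja4 arterial-like cells, had 67.2, 76.7, 39.5 and 80.6 CPM, so that the Spock2 cells exceeded it 3.98 to 6.04 times within a library. The Tdrp neural capillary-like cells had 59.9, 58.3, 25.1 and 65.9 CPM, and the Spock2 cells exceeded them 6.28 to 7.39 times. The Spock2 cells were 4.0 to 6.92% of cells and held 44.5 to 60.1% of each library's Igfbp7 UMIs. At 5000 UMIs per cell, 36.4% (exact 95% interval 29.0 to 44.2, KO 1) to 67% (62.2 to 71.6, KO 2) of them had an Igfbp7 UMI, against at most 6.67% of germ cell-like, 8.82% of megakaryocyte-like and 1.41% of erythroid-like cells. Unthinned, 61.2 to 84.5% of the Spock2 cells had one, at median depths of 15488 to 23340 UMIs. The unthinned shares were then at most 19.6% in germ cell-like cells, at the depths given for Igf1, 13.2% in megakaryocyte-like cells (median 25275 to 54089 UMIs) and 5.26% in erythroid-like cells (25119 to 34335 UMIs). Venous-like cells had 11.6, 4.43, 0.319 and 2.85 CPM and cycling endothelial-like cells 6.03, 4.15, 1.44 and 5.36 CPM. Endothelial-like cells exceeded mesenchymal-like ones 4.19 to 14.9 times.

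**Figure D1:**
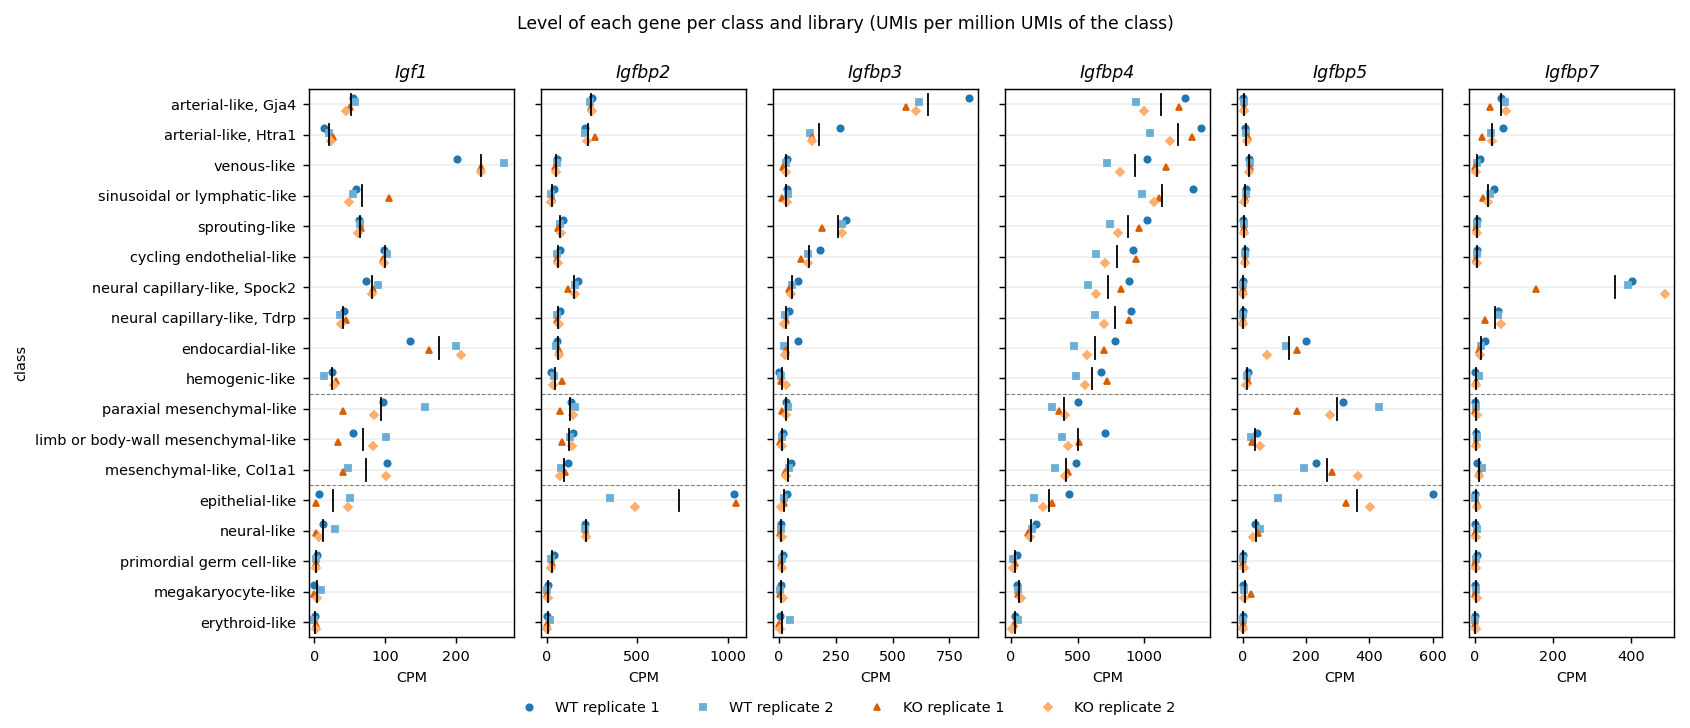
Level of each of the 6 genes (x axis, CPM, linear, own range per gene) in each class (y axis); every point is 1 library, marked by group and replicate, and the black bar is their mean. Igf1 peaks in venous-like cells (201 to 269), Igfbp3 in Gja4 arterial-like cells (558 to 834) and Igfbp7 in Spock2 neural capillary-like cells (158 to 487), while Igfbp4 is spread over all endothelial subclasses.

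**Figure D2:**
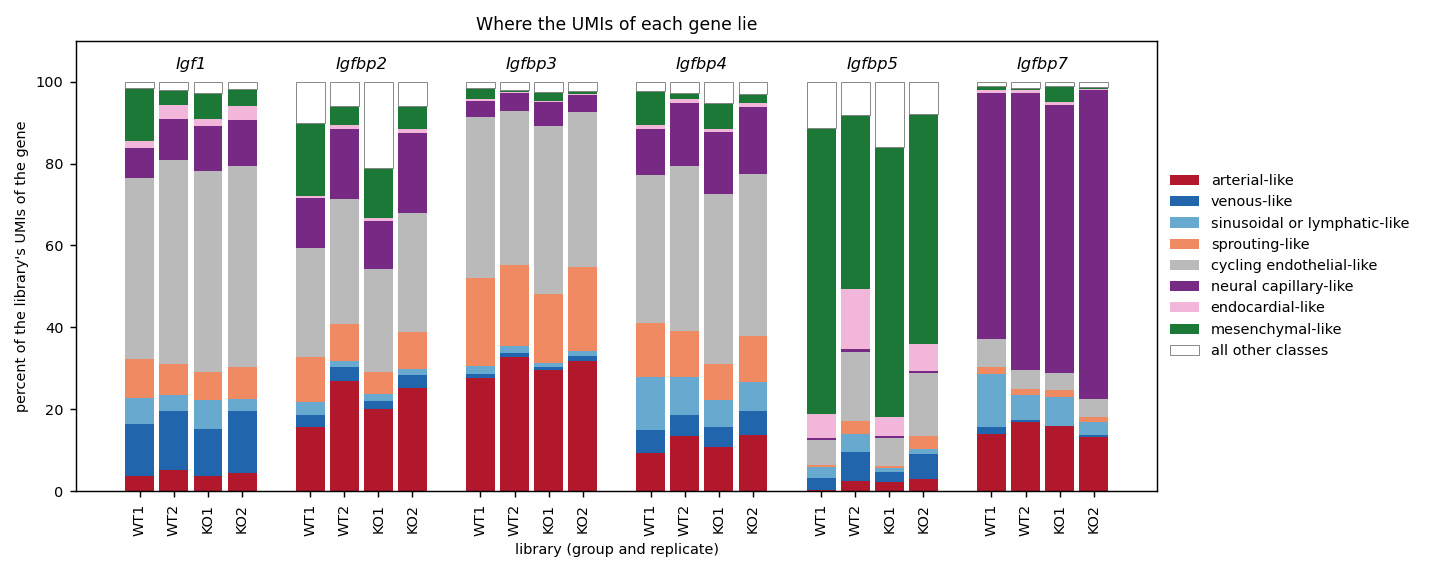
Share of each library's UMIs of a gene (y axis, percent) that lies in the groups of classes given by colour; each bar is 1 library. Endothelial-like cells hold 85.5 to 94.4% of the Igf1 UMIs and 95.1 to 98.3% of the Igfbp7 UMIs, whereas mesenchymal-like cells hold 42.5 to 69.9% of the Igfbp5 UMIs.

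In cycling cells, the largest subclass, the growth factor and its arterial binding protein shared fewer cells than the product of their single frequencies, with no test. In cycling endothelial-like cells thinned to 5000 UMIs, Igf1 and Igfbp3 were both present in 10.3, 9.98, 8.40 and 9.22% of cells, against products of 14, 12.4, 9.38 and 11.5%, a ratio of 0.732 to 0.896 in 4 libraries. Sprouting-like cells also had ratios below 1 in 4 libraries, 0.765 to 0.929, but in the other 7 endothelial subclasses the ratios lay on both sides of 1. They were 0.847 to 1.01 in Gja4 arterial-like, 0.564 to 1.04 in venous-like and 0.816 to 1.17 in Tdrp neural capillary-like cells. In the joined classes the ratio was 0.759 to 0.812 for endothelial-like and 1.12 to 1.77 for mesenchymal-like cells. Within mesenchyme it was 1.06 to 1.62 in paraxial cells. It lay on both sides of 1 in limb or body-wall cells (0 to 2.05) and Col1a1 cells (0 to 2.67). Igfbp2 and Igfbp3 were both present in 13, 10.3, 9.19 and 10.8% of the cycling endothelial-like cells. The products there were 11.2, 8.94, 6.86 and 8.86%, a ratio of 1.15 to 1.34. These are descriptions of cells of a library, which are no replicates, and the cycling class was not divided by vessel type.

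Across 18 named classes the genes with the pattern most like each member were found by Pearson's correlation of log2(CPM + 1), with each class the mean of the same 4 libraries. For Igf1 they were Cd302 (r = 0.94), Nynrin (0.93) and Tshz2 (0.92). For Igfbp2 they were Klc2 (0.90), Tmem80 (0.89) and Llgl1 (0.89), and for Igfbp3 8430408G22Rik (0.88), Efna1 (0.87) and Lamc1 (0.87). Igfbp4 had the closest company, Tmem109 (0.98), Hyal2 (0.97) and Heph (0.97). Igfbp5 was followed by Axl (0.94), Stxbp6 (0.92) and Foxp4 (0.92), and Igfbp7 by Arhgef12 (0.87), Cd82 (0.87) and Pdzd2 (0.86). Among the 6 genes themselves the highest correlation was between Igf1 and Igfbp4 (0.85) and the lowest between Igfbp5 and Igfbp7 (-0.31).

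Of the receptors, Igf1r, which transmits the IGF1 signal, had 48.5, 50.9, 41.8 and 50.9 CPM in endothelial-like and 86.6, 83.5, 76.8 and 94.0 CPM in mesenchymal-like cells, so mesenchymal-like values lay above all endothelial-like ones. Igf2r, which clears IGF2, was highest in endocardial-like cells at 171 ± 70.9 CPM (SD, n = 4), and Insr, the insulin receptor, in Spock2 neural capillary-like cells at 43.0 ± 12.3 CPM. Igfbpl1, a binding protein relative, was at 335 ± 107 CPM in neural-like cells and at 0.216 ± 0.0758 CPM in endothelial-like cells. Igf2, the other growth factor, gave only 6.48, 8.62, 5.07 and 6.61 CPM in endothelial-like cells. It overlaps Gm49394 on the same strand in the annotation, so its counts are uncertain.

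In the KO against the WT, none of the 6 genes passed the test in endothelial-like cells. Igf1 differed by 0.01 ± 0.12 (log2 fold change ± SE, n = 2 libraries against 2), Igfbp2 by -0.02 ± 0.13, and Igfbp4 (1015, 705, 980 and 771 CPM) by 0.04 ± 0.19. Igfbp3, at 195 and 155 CPM in the WT and 111 and 151 CPM in the KO, was lower in both KO libraries, by -0.40 ± 0.18, with an adjusted p of 1.0 in edgeR's quasi-likelihood test with Benjamini-Hochberg adjustment over 14678 genes. For the folds of the 6 genes named from here on with all 4 libraries, the adjusted p was 0.998 to 1.0 unless another value is given. Igfbp5 was also lower in both KO libraries, by -0.19 ± 0.16. Igfbp7 gave 38.7 and 41.0 CPM in the WT and 16.2 and 54.0 CPM in the KO, a fold of -0.16 ± 0.48, and its 2 KO libraries lay on opposite sides of the WT. So 0 of the 6 genes were called, with 0 at an unadjusted p under 0.05, and DESeq2 called 0, with 1 at an unadjusted p under 0.05. Over all genes 15 were called, 0.102%, and in edgeR 84 up and 159 down had an unadjusted p under 0.05. Without KO replicate 2, the Igfbp7 fold was -1.28, and without KO replicate 1 it was 0.46.

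In mesenchymal-like cells 0 of the 6 genes passed as well, against 0.00837% of all genes, and DESeq2 called 0. Over the 11947 genes tested there, 136 up and 147 down had an unadjusted p under 0.05. Igfbp3 was lower in the KO, by -0.61 ± 0.24, the one fold here with an unadjusted p under 0.05, and Igfbp2 by -0.31 ± 0.18, each with both KO libraries below both WT ones. Igf1 differed by -0.58 ± 0.46, and KO 1 alone lay below all others. Igfbp4 gave -0.11, Igfbp5 0.01 and Igfbp7 0.19. Without KO replicate 2, the Igf1 fold was -1.29. The difference between the KO effects in mesenchymal-like and endothelial-like cells was tested with the library as a term, and passed for 0 of the 6 genes and 0.0603% of all genes. The smallest adjusted p was 0.68, for Igfbp2, with a difference of -0.31 ± 0.10, mesenchymal-like minus endothelial-like, on the log2 scale.

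The tests were repeated in 15 subclasses that had at least 20 cells in every library. Of 81 tests of the 6 genes, 0 passed over all genes, 8 had an unadjusted p under 0.05, and DESeq2 called 0. In the classes of those 8, genes at that unadjusted level, up and down, numbered 74 and 132 of 10727 in venous-like cells. They numbered 55 and 131 of 10549 in sinusoidal or lymphatic-like, 49 and 110 of 10650 in Spock2 and 80 and 117 of 10071 in paraxial cells. In Col1a1 cells they were 131 and 137 of 9627, and in neural-like cells 82 and 134 of 8095. The background of calls was 0.0682% of genes in cycling, 0.0276% in Gja4 and 0.0193% in Htra1 arterial-like, 0.028% in venous-like, 0.0569% in sinusoidal or lymphatic-like and 0.053% in sprouting-like cells. It was 0.0282% in Spock2 and 0.0349% in Tdrp neural capillary-like cells, 0.0101% in limb or body-wall, 0.125% in germ cell-like and 0.026% in epithelial-like cells, and 0% in endocardial-like, paraxial, Col1a1 and neural-like cells.

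Igfbp3 had a negative fold in each of the 13 subclasses in which it could be tested, from -0.78 to -0.26 with a median of -0.43. Both KO libraries lay below both WT ones in 6 of 15 subclasses and above them in 0. Over all genes with at least 10 UMIs in a subclass, KO lay below in 15.7% of gene and subclass pairs and above in 10.9%. The other counts below and above, in subclasses with at least 10 UMIs of the gene, were 4 and 1 of 15 for Igf1, 1 and 3 of 15 for Igfbp2, 1 and 0 of 15 for Igfbp4, 2 and 3 of 14 for Igfbp5, and 4 and 0 of 13 for Igfbp7. The subclasses come from the same 4 libraries, so the 13 folds are not independent. The hemogenic-like class is not among them. There Igfbp3 was higher in both KO libraries, 0 and 9.91 CPM in the WT and 10.2 and 32.0 CPM in the KO. Those values rest on 0, 16, 29 and 55 UMIs. In erythroid-like cells, also untested, Igfbp3 was lower in both KO libraries, 6.55 and 49.2 against 3.13 and 3.99 CPM. In the class where Igfbp3 is highest, the Gja4 arterial-like cells, the fold was -0.30 ± 0.16. WT 1 was the highest library for Igfbp3 in 12 of 15 subclasses and KO 1 the lowest in 11. In Spock2 neural capillary-like cells the fold was -0.49 ± 0.21 and in Col1a1 cells -0.78 ± 0.23, both with an unadjusted p under 0.05 and neither past the threshold over all genes. Without WT replicate 2, the Igfbp3 fold was -0.82 in Htra1 arterial-like cells and -1.47 in endocardial-like cells. Without KO replicate 2, it was -1.25 in sinusoidal or lymphatic-like cells. Such fits leave 1 library in a group, so no call of the 6 genes is read from them in the subclasses.

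Igfbp7 differed between the 2 KO libraries. Its fold was negative in 10 of 11 subclasses tested, with a median of -0.50, but KO 1 was the lowest library in 12 of 15 and KO 1 lay above KO 2 in only 1. In the neural capillary-like, Spock2-led cells, where the gene is highest, the fold was -0.24 ± 0.62, with KO 1 below and KO 2 above both WT libraries. The 12 neural capillary markers summed there to 1746, 1623, 1254 and 1587 CPM, lowest in KO 1 as well, and their part in the Igfbp7 level was not tested. In venous-like cells, with 44, 28, 1 and 18 UMIs, the fold was -1.93 ± 0.60 and in sinusoidal or lymphatic-like cells -0.66 ± 0.26, both with an unadjusted p under 0.05 that did not pass the adjustment. Without KO replicate 2, the Igfbp7 fold was -1.79 in cycling, -1.66 in Htra1 arterial-like and -4.44 in venous-like cells. It was then -1.16 in sinusoidal or lymphatic-like, -1.29 in Spock2 and -1.21 in Tdrp cells. The venous-like fold then rests on the 1 UMI of KO 1. Without WT replicate 2 the Igfbp7 fold in venous-like cells was -2.52.

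Igfbp4 followed the replicate number. WT 1 lay above WT 2 in 15 of 15 subclasses and KO 1 above KO 2 in 13 of 15, and the folds were spread around 0, with a median of 0.02. In Htra1 arterial-like cells, its highest class, the fold was 0.08. The labels do not say whether replicates of the same number share a day or a batch.

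Igfbp5 had folds of either sign by class, 5 below 0 and 7 above among 12 subclasses tested. In sinusoidal or lymphatic-like cells, with 68, 84, 23 and 23 UMIs (10.7, 9.89, 5.42 and 4.03 CPM), the fold was -1.13 ± 0.27, and in paraxial cells it was -0.72 ± 0.24. In Col1a1 cells both KO libraries were above both WT ones, with a fold of 0.60 ± 0.16. All 3 folds had an unadjusted p under 0.05, and none passed the adjustment. The mesenchymal markers summed to 19, 11.5, 23.8 and 16.5 CPM in the class sinusoidal or lymphatic-like. In the class mesenchymal-like, Col1a1 they summed to 2880, 2266, 3737 and 2269 CPM, and the smooth muscle or pericyte markers to 341, 898, 1098 and 1094 CPM, higher in both KO libraries. The part of cells with these or other classes' markers in the Igfbp5 folds was not tested. In endocardial-like cells the fold was -0.48 ± 0.34, with KO 2 the lowest library. Without WT replicate 1, the Igfbp5 fold was -0.97 in paraxial cells and 1.64 in epithelial-like cells.

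Igf1 and Igfbp2 had folds near 0 in the endothelial subclasses where they are highest. Igf1 had a fold of 0.02 in venous-like cells and Igfbp2 of 0.02 in Gja4 arterial-like cells. Igf1 was lower in both KO libraries in 4 subclasses and higher in 1. In hemogenic-like cells, which were not tested, it was higher in both KO libraries, 25.0 and 13.6 CPM in the WT and 30.2 and 27.9 CPM in the KO. The most negative Igf1 fold was in neural-like cells, -2.52 ± 0.66 (adjusted p = 0.73), on 12, 23, 7 and 6 UMIs. Those cells carried 413, 483, 166 and 256 CPM of pan-endothelial markers, also lower in the KO, and their part in the result was not tested. Without KO replicate 2, the Igf1 fold in neural-like cells was -3.13, and without WT replicate 1 the Igf1 fold in paraxial cells was -1.39. Differences of the KO effect were tested for all 105 pairs of subclasses, adjusted over all genes of each pair. Of 619 tests of the 6 genes 8 passed, where 0.0568% of all tests passed. An unadjusted p under 0.05 was found in 106 of the 619. The share of all genes at that unadjusted level was not counted for the pairs, so nothing is read from the 106.

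**Figure D3:**
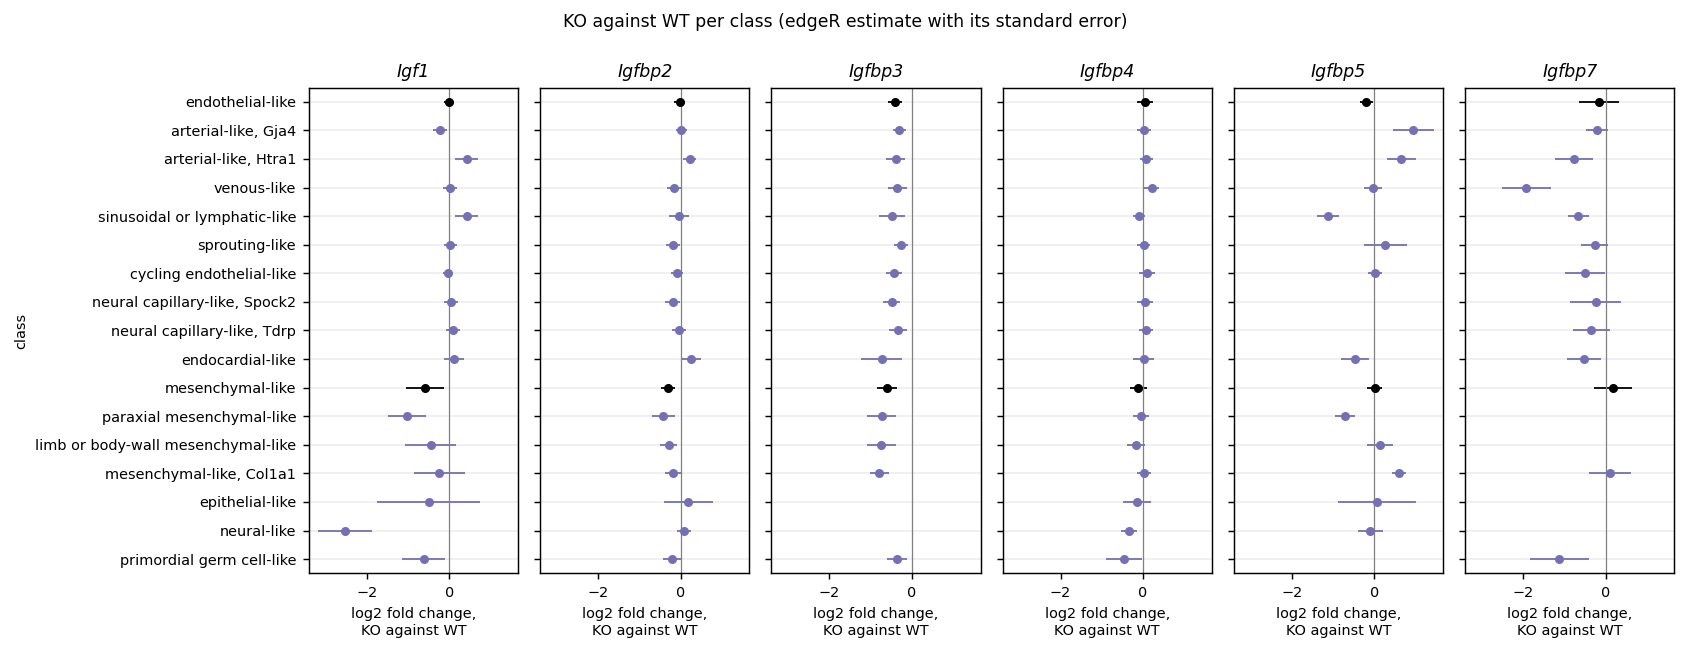
Log2 fold change, KO against WT (x axis, edgeR estimate), of each gene in each class tested (y axis); bars are standard errors and black points are the joined endothelial-like and mesenchymal-like classes. All 13 subclass folds of Igfbp3 lie below 0, from -0.78 to -0.26, the Igfbp4 folds lie around 0, and 0 of the 93 estimates passed the adjusted threshold.

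**Figure D4:**
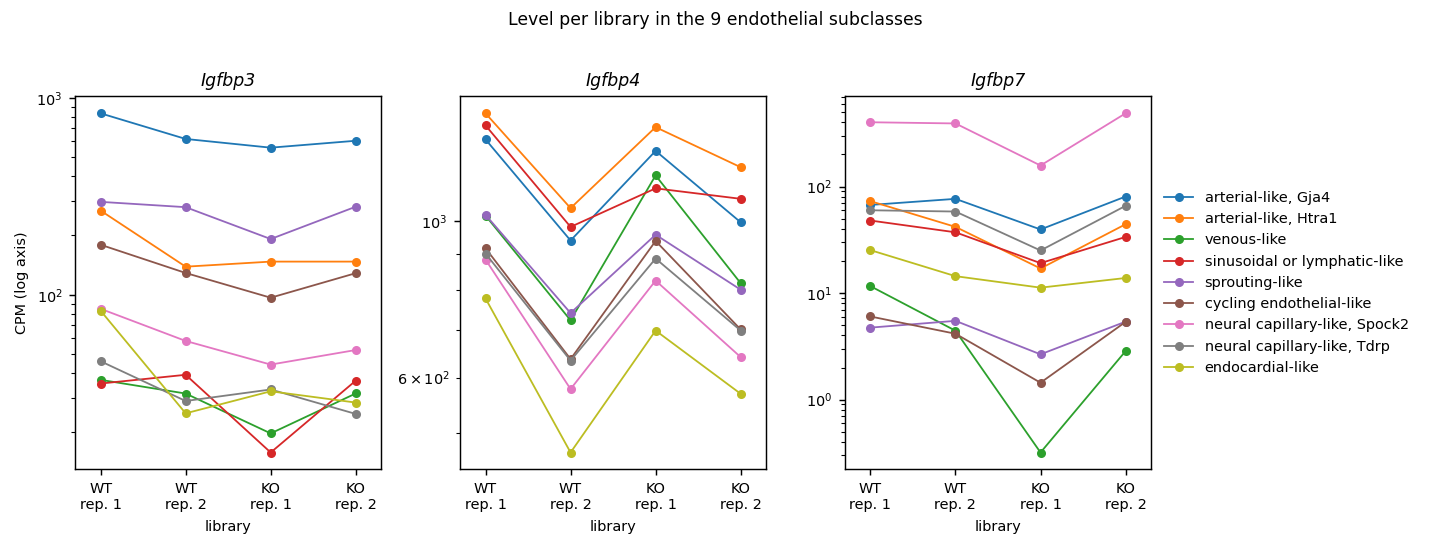
Level in CPM (y axis, log axis) in the 4 libraries (x axis) for 3 of the binding proteins, Igfbp3, Igfbp4 and Igfbp7; each line joins the values of 1 endothelial subclass, and the libraries have no order. For Igfbp4 WT replicate 1 is above WT replicate 2 throughout, and for Igfbp7 KO replicate 1 is the lowest library in most subclasses.

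Around the 6 genes, 66 other genes of the pathway in 8 lists were read from the same tests, and 0 of those tested passed in either direction in any class. In endothelial-like cells the median fold over all genes was -0.0039. Of the ligands 2 of 4 could be tested, with Igf2 at -0.36 ± 0.21. The 3 receptors tested had Igf2r at -0.24, Igf1r at -0.09 ± 0.15 and Insr at -0.05. Over the 8 binding proteins tested, the 6 members included, the median was -0.16, with Igfbpl1 at 0.76 on few UMIs. The 12 proteases and inhibitors had a median of -0.05, with Plau, which activates plasminogen, at -0.39 and Stc2, an inhibitor of Pappa, at -0.42. The 7 receptor adaptors had a median of -0.06, with Sos2 at -0.09 and Shc1 at -0.09. The 22 genes of PI3K, Akt and mTOR had a median of 0.02, with Foxo4 at 0.27 and Pik3cb at -0.22. The Igf2bp genes, which encode proteins binding Igf2 mRNA, had a median of 0.09 over 3, with Igf2bp2 at 0.15 and Igf2bp3 at 0.09.

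The CCN proteins, matrix proteins that share an IGF-binding-like domain, had the lowest median of the lists, -0.40 over 6 genes. Ctgf, which fibrotic and mechanically loaded tissue makes, stood at 18.1 and 15.2 CPM in the WT and 11.1 and 12.3 CPM in the KO, a fold of -0.49 ± 0.15 with an unadjusted p under 0.05 and an adjusted p of 1.0. Wisp1 was at -0.50 ± 0.34. Without WT replicate 2, the fold of Cyr61, another CCN gene, was -0.73 in endothelial-like cells. In subclasses it was then -1.21 in Col1a1, -1.0 in Spock2, -0.87 in Gja4 arterial-like and -0.86 in sprouting-like cells. Without the same library, the fold of Adamts1, a matrix protease, was -1.11 in Htra1 arterial-like cells. That of Igf2r was then 1.19 in endocardial-like cells. Without WT replicate 1, the Igf2r fold was -0.80 in Htra1 arterial-like cells. These fits leave 1 WT library, the same one in each class, so no call is read from them. Cyr61 and Adamts1 were named after their values were seen. In mesenchymal-like cells the medians ran from -0.48 over 2 ligands and -0.21 over 6 binding proteins to 0.13 over 3 receptors, and the 3 CCN genes tested had a median of -0.09, where that of all genes was -0.00092.

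Of the genes with a miR-223 seed match shown above, Igfbp5 had folds of -0.19 ± 0.16 in endothelial-like and 0.01 in mesenchymal-like cells, and Igf1r of -0.09 ± 0.15 in endothelial-like cells. Neither passed the test.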

How the data were processed

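Single cells were measured in 4 libraries made with a 10x Chromium 3' kit of version 3, per the labels' protocols. The deposited files hold whole-number UMI counts per gene and barcode; Cell Ranger and Seurat 4 are named in the submitters' processing notes, the matrix headers give software version 3.1.0 per the file headers, and the sources used here give no genome build. Cells with at least 1000 genes, under 10% mitochondrial UMIs and no doublet call (scrublet, expected rate of 0.8% per 1000 barcodes) were kept. They were clustered with scanpy 1.11.5 and leidenalg 0.10.2 (2000 variable genes without the 6 members and their pathway, 40 components, 20 neighbours, resolution 1) and named from marker lists; 737 cells stayed unnamed. Names were rebuilt here and may differ from the authors'. For each class, the UMI counts of a library were totalled, and KO was compared with WT by edgeR 4.0.16 (quasi-likelihood, TMM, filterByExpr) in R 4.3.3, with Benjamini-Hochberg adjustment over all genes tested and a threshold of 0.05. The main edgeR test was run on simulated counts for the endothelial-like and mesenchymal-like classes, and its alternatives were not. DESeq2 1.42.0 was an alternative. CPM values were computed here from the deposited counts. Intervals and the limit at 0 (3 counts, over the joined libraries) cover counting error only. Of 31053 genes, 30934 matched the annotation. The genes named outside the members are the ligands and receptors and, in each list, the 2 with the smallest p in endothelial-like cells, and by likeness the 3 best with at least 10 CPM in a class. Members and lists were chosen with earlier results of these data known.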

Additional observations from a re-analysis of the deposited data

Results flagged for a closer look

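Among the 105 pairs of subclasses, 8 differences of the KO effect passed the adjusted test of the difference itself. For Igf1, the KO effect in neural-like cells was lower than in 7 endothelial subclasses: by -2.53 on the log2 scale against cycling cells (adjusted p = 9.76e-06), -2.38 against Gja4 arterial-like (0.0106), -3.18 against Htra1 arterial-like (5.44e-06), -2.62 against venous-like (0.000729), -2.64 against sprouting-like (6.13e-06), -2.64 against Spock2 neural capillary-like (0.000851) and -2.58 against endocardial-like cells (0.0177). The neural-like Igf1 values behind all 7 are the same 12, 23, 7 and 6 UMIs, both KO libraries below both WT ones. None of the 7 passed with the doublets kept (-0.37 to -0.66, adjusted p = 1), and none passed without WT replicate 2 (adjusted p 0.133 to 0.803) or without KO replicate 1 (0.348 to 0.928). Without WT replicate 1 the difference to endocardial-like cells did not pass (-2.91, adjusted p = 0.0639). For Igfbp5, the effect in Col1a1 mesenchymal-like cells was 1.78 higher than in sinusoidal or lymphatic-like cells (adjusted p = 2.50e-05). It passed without each replicate in turn (1.36 to 2.14) and did not with the doublets kept (1.40, adjusted p = 1). These alternatives were chosen after seeing the data.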

How the results depend on the processing

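Direction and call of the folds named in the text held for 26 of 26 under DESeq2. Genes called in endothelial-like cells numbered 15, and 43 with DESeq2, 83 with no filter on low counts, 59 with the replicate number as a block, and 17 to 104 without each replicate. In mesenchymal-like cells 1 was called, and 4, 36 and 44 in the same order, 0 with doublets kept, and 2 to 44 without each replicate. Members called numbered 0 to 1 without each replicate in both classes (Igfbp7 and Igf1, above), and other pathway genes 0 to 1 in endothelial-like cells (Cyr61) and 0 in mesenchymal-like ones. In the subclasses 3 member tests passed with no filter (Igfbp7 venous-like -1.92, Igf1 paraxial -1.02, Igf1 neural-like -2.48), 2 with the replicate block (paraxial Igfbp5 -0.74, adjusted p = 0.0349, and Igf1 -1.06, adjusted p = 0.00645), and 0 to 8 without each replicate. Other pathway genes passed in subclasses with the block (Ctgf in Tdrp -0.67, Igf2bp2 in germ cell-like cells 0.66) and with no filter (Cyr61 in Col1a1 -0.78). Their folds without a WT library are given above. Same-numbered libraries deviated together (r = 0.34 over 14678 genes), but no label ties the numbers to a batch. Signs turned in endothelial-like cells for Igf1 with doublets kept (-0.0066) or without Prrx1, Twist1 or Pdgfra cells (-0.029) and for Igfbp2 at 20% mitochondrial UMIs (0.0073) or thinned sums (0.010), and in mesenchymal-like cells for Igfbp5 under the block (-0.0069) or with doublets (-0.022) and for Igfbp7 with doublets (-0.18) or thinned sums (-0.063). Without each replicate the folds in endothelial-like cells ranged from -0.047 to 0.061 (Igf1), -0.13 to 0.093 (Igfbp2), -0.19 to 0.32 (Igfbp4) and -1.28 to 0.46 (Igfbp7); in mesenchymal-like cells from -0.42 to 0.29 (Igfbp4), -0.27 to 0.26 (Igfbp5) and -0.48 to 0.91 (Igfbp7). In subclasses they ranged from -0.012 to 0.047 (Igfbp2, Gja4), -0.11 to 0.30 (Igfbp4, Htra1), -0.19 to 0.27 (Igf1, venous-like), -1.29 to 0.35 (Igfbp7, Spock2) and -1.11 to 0.021 (Igfbp5, endocardial-like). Where 1 library was left out, the lone sample was assumed to vary like the other group. At resolution 0.6 the highest endothelial class was kept for 5 of 6 genes: the venous-like name was lost, and Igf1 was highest in endocardial-like cells. Igfbp2 in Gja4 arterial-like cells was 247 CPM, 241 with doublets kept and 277 at 20% mitochondrial UMIs. Of 120 levels, 93 moved by less than 1 SD with doublets kept, 115 at 20% and 112 with the members used in clustering. The causes were not tested. The 2 libraries per group and the few cells of the small classes limit what could be called.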
